A study of Rattus norvegicus with 12 samples.

Results

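S100 proteins are small calcium-binding proteins, and the values below are their RNA levels in the rostral ventrolateral medulla (RVLM), a part of the brainstem that sets sympathetic outflow and, through it, blood pressure. The members were chosen by name: every non-control probe whose gene name or current symbol was S100a1, S100a4, S100a6, S100a8, S100a9, S100a10, S100a11, S100a13, S100a16 or S100b was taken. Of these 10 genes, 9 had at least 1 probe, and S100a11 is not analysed here. They were read by 15 of the 41012 probes on the array. A probe was kept when all arrays of 1 or more age groups showed it well above background, which held for 12 of the 15. The 9 genes were among 14114 named genes tested. All animals were male F344 rats, an inbred strain, and the groups were 3 young rats of about 3 months, 3 middle-aged rats of about 12 months and 3 aged rats of about 24 months. The rats were anesthetized with isoflurane and decapitated, and total RNA of RVLM punches from frozen brains was labelled with the dye Cy3 and hybridised to 1-colour rat arrays. Replicate 3 of each group was measured on 2 arrays, which were averaged, so that 12 arrays gave 9 animals. The series asked which genes, those of the immune system among them, differ in the RVLM with age.

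An S100 protein is built around a pair of EF-hands, loops that bind calcium, and most members work as dimers that change shape when calcium rises and then bind target proteins inside the cell. Some members are also released and act on receptors such as RAGE (Ager) and the Toll-like receptor Tlr4. S100a8 and S100a9 pair as calprotectin and are abundant in neutrophils and monocytes, S100b is best known from astrocytes and some oligodendrocytes, and S100a4, S100a6 and S100a10 are made by many cell types. Most S100 genes sit side by side in the genome. On the rn3 coordinates of the array files the probes of S100a1, S100a13, S100a16, S100a4, S100a6, S100a8 and S100a9 all lay within chr2:182734771-182937812, S100a10 had its probe at chr2:186604339-186604398, and S100b at chr20:12792126-12792185. In the order of genes on GRCr8, RefSeq's current rat assembly, S100a8 and S100a9 are next to each other.

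The probe sequences matter here because several genes were read by probes on both strands. Labelled cRNA is complementary to the RNA it was copied from, so a probe with the letters of the transcript pairs with label made from that transcript, and a probe with the reverse complement does not. For S100a4 and S100a6, 1 probe designed from another record held the reverse complement of part of the probe designed from the RefSeq transcript. The sequences are shown 5′ to 3′, and the capitals mark the stretch whose reverse complement stands in the partner probe, 24 bases for S100a4 and 27 bases for S100a6.
S100a4 A_44_P1060286, plus strand, chr2:182836604-182836663: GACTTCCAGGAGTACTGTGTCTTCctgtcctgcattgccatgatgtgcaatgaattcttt
S100a4 A_44_P332021, minus strand, chr2:182837227-182837286: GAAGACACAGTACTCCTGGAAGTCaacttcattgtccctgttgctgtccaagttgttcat
S100a6 A_42_P581001, plus strand, chr2:182846235-182846294: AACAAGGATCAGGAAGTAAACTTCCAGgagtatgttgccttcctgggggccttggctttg
S100a6 A_44_P519487, minus strand, chr2:182846202-182846261: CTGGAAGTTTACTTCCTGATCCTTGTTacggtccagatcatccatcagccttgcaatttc
The coordinates of the S100a6 pair overlapped by the shared stretch, and those of the S100a4 pair did not overlap although their letters did. The calprotectin genes, which had the largest differences among the members, were read by the probes below, shown in lower case with no marked stretch. Probes were compared within a gene only, and S100a9 had no other probe.
S100a8 A_44_P1055780, plus strand, chr2:182912434-182912493: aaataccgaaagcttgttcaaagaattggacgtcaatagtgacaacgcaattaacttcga
S100a9 A_44_P353618, minus strand, chr2:182937753-182937812: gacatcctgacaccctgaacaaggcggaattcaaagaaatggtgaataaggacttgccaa
A_44_P674704 and A_44_P674708, which also bear the name S100a8, lay on the minus strand, opposite to the S100a8 transcript probe. The files do not say which exon a probe falls in.

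Levels are log2 signals relative to the 75th percentile of each array, which is 0 on this scale, and they are compared within a probe only, since the brightness of different probes is not on 1 scale. Between 73.5% and 77.1% of an array's spots were clearly detected, no spot was saturated, and precision is limited by the number of animals. There were 3 slides, and slide 3 alone held all 3 ages. Slide 1 held no aged array and slide 2 no young array, so age and slide cannot be fully told apart. On the first principal component of all items (25.9% of the variance) the young animals lay at -23.1 to -13.5, the middle-aged at -14.6 to 2.6 and the aged at 15.4 to 34.6. Aged replicate 3 was the far end of that axis. The 3 aged animals, 3 middle-aged animals and 3 young animals are separate biological replicates per the labels. RNA from punched tissue mixes all its cells, and more cells of a type cannot be told apart from more RNA per cell. The punches carried the RNA of the labelled tissue's neurons, with Th, Dbh, Phox2a and Slc17a6 well above background on all 12 arrays.

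No S100 member passed the test between any pair of ages. In the comparison of aged with young rats, 0 of 9 members had an adjusted p under 0.05 (limma, 2-sided, Benjamini-Hochberg over all 25446 items), against 2.04% of all items. Without adjustment 5 of 9 members had p under 0.05, S100a8 among them, against 15.2% of all items. In 5 of 9 members every aged animal lay above every young animal, against 14% of all items, and in 0 of 9 every aged animal lay below, against 8.67%. These 5 were S100a1, S100a4, S100a9, S100a13 and S100a16. The median difference of the 9 members was 0.22 log2 units, and that of all items was 0.03. S100a8 entered the test because its middle-aged and aged arrays were bright, so it is not a neutral part of that median or of any count of members by unadjusted p. Between middle-aged and young rats 0 of 9 members passed (0.2% of all items) and 0 had an unadjusted p under 0.05 (6.35%). The groups stood apart in 0 of 9 members, against 6.75% of all items higher and 4.61% lower, with a median of 0.21 (0.01 over all items). Between aged and middle-aged rats 0 passed (0.0118% of all items) and 2 had an unadjusted p under 0.05 (10.7%), with a median of 0.19 (0.02 over all items). In that comparison the groups stood apart, with the aged higher, in S100a1, S100a9 and S100a16, which is 3 of 9 against 10.4% of all items, and with the aged lower in 0 of 9, against 6.6%. The moderated F test over the 3 ages called 0 of 9 members, against 1.15% of all items, and 4 of 9, again with S100a8, had an unadjusted F test p under 0.05, against 12.3%.

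**Figure D1:**
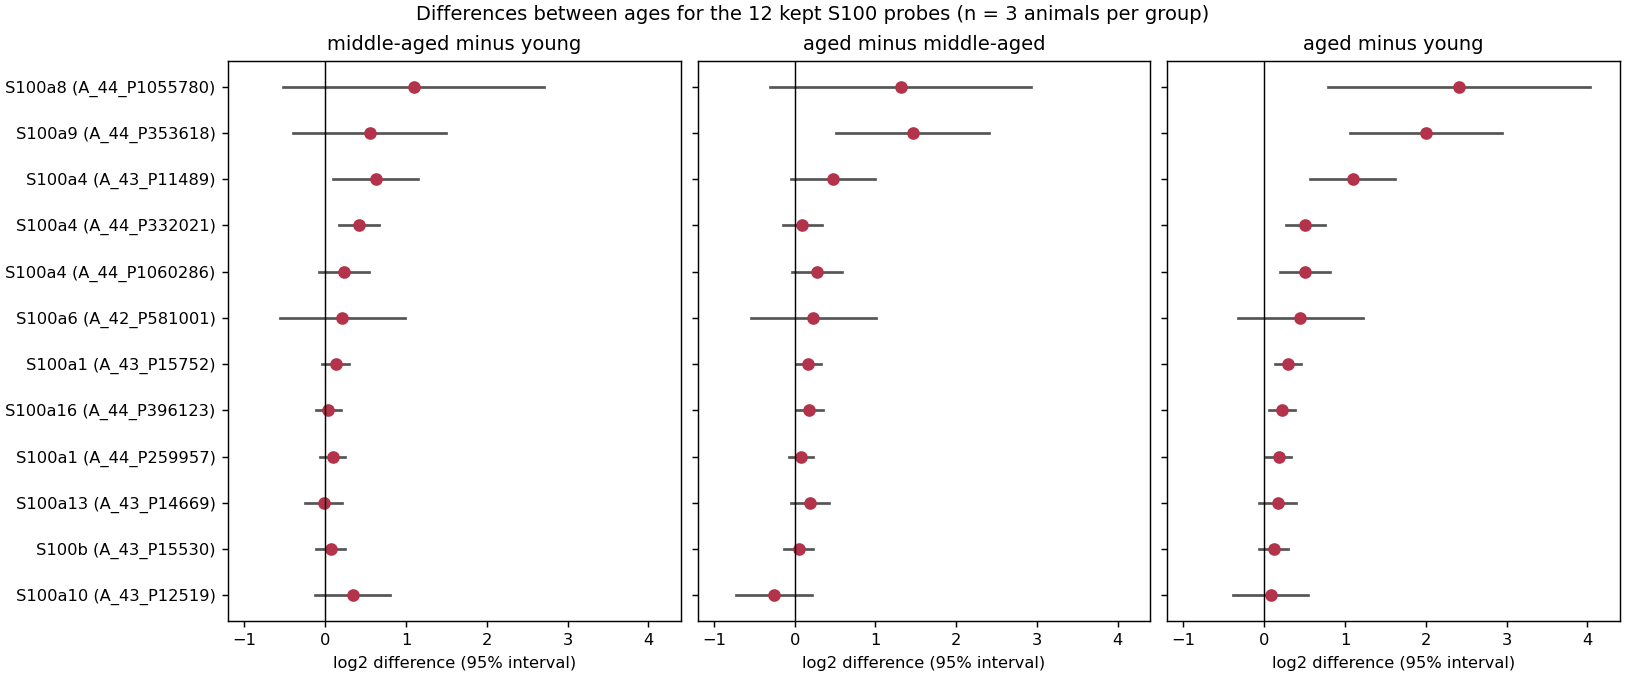
Differences between ages in log2 units with their 95% intervals, 1 row for each of the 12 kept S100 probes and 1 panel for each pair of ages (n = 3 animals per group). In the aged minus young panel S100a8 and S100a9 lie farthest to the right, at 2.41 and 2.00, S100b and S100a10 lie near 0, and the intervals of S100a8 and S100a9 are the widest.

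S100a9, the larger calprotectin subunit, had the smallest p of the 9 members in aged against young rats. Its level was -3.52, -4.63 and -4.48 in the young rats, -3.63, -3.25 and -4.11 in the middle-aged rats and -2.28, -2.91 and -1.42 in the aged rats. All 3 aged animals lay above all 6 younger animals, and the young and middle-aged groups overlapped. The level was well above background on all 12 arrays. The aged mean exceeded the young mean by 2.00 ± 0.42 log2 units (SE, n = 3 per group), with a 95% interval of 1.05 to 2.96 log2 units. That is a 4.01-fold difference, and the limma adjusted p was 0.052. Against the middle-aged rats the difference was 1.46 ± 0.42 (adjusted p = 0.316), and between middle-aged and young rats it was 0.55 ± 0.42 (adjusted p = 0.96). The adjusted p of the aged minus young difference lay near the threshold: it was 0.0445 without young replicate 1 and 0.0426 without aged replicate 2, and 0.179 without young replicate 2. With normexp background correction the difference was 1.02, and with slide as a block it was 2.03 (limma adjusted p = 0.0872). Within slide 3 it was 2.97. Here and below, that value compares both arrays of aged replicate 3 with 1 array of young replicate 3.

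S100a8, the partner subunit, was much closer to background. Its level was -4.69, -6.90 and -6.81 in the young rats, -5.00, -4.40 and -5.71 in the middle-aged rats and -3.34, -5.00 and -2.84 in the aged rats. In the young group 1 of 4 arrays was well above background, that of replicate 1, and in the older groups all arrays were. Aged replicate 2 fell within the range of the younger animals, so the groups overlapped. The aged minus young difference was 2.41 ± 0.71 (95% interval 0.79 to 4.03), with a limma adjusted p of 0.158. With each array's value floored at its dimmest clearly detected probe, the difference was 1.76, or 3.39-fold. It was 0.66 with normexp background correction, 3.62 with slide as a block and 4.67 within slide 3, where it compares both arrays of aged replicate 3 with 1 array of young replicate 3. The minus-strand probes named S100a8 were well above background on 1 of 12 arrays (A_44_P674704) and 0 of 12 arrays (A_44_P674708).

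Within each age group S100a8 and S100a9 ranked the animals alike. Across ages they did not, since aged replicate 2 lay above all younger animals for S100a9 only. Replicate 1 was the highest young animal for both genes, replicate 2 the highest middle-aged animal and replicate 3 the lowest, and aged replicate 3 was the highest and aged replicate 2 the lowest of the aged. The order of young replicates 2 and 3 is not read for S100a8, which was not well above background in either. The 2 arrays of replicate 3 of each group differed by 0.07 to 0.19 for S100a9. For S100a8 they differed by 0.13 in the aged animal, 0.37 in the middle-aged animal and 1.37 in the young animal.

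**Figure D2:**
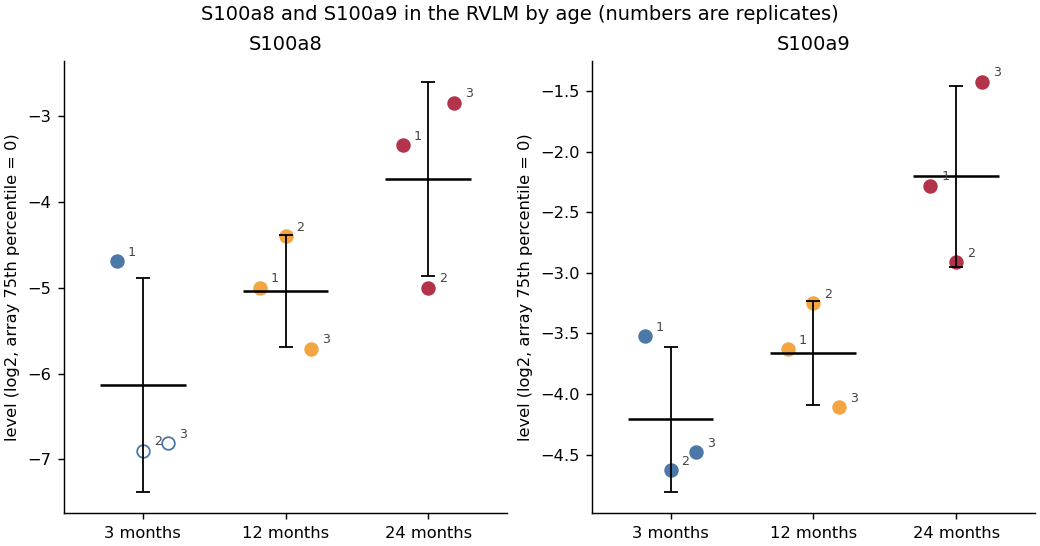
Level of S100a8 and S100a9 (log2, array 75th percentile at 0) in each of the 9 animals by age. Points are animals labelled by replicate, open points had no array well above background, the long bar is the group mean and the whiskers are 1 SD. For S100a9 the 3 aged animals sit between -2.91 and -1.42, above all younger animals, and for S100a8 aged replicate 2, at -5.00, lies among the younger ones.

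Markers of blood and immune cells were read beside these genes. Of 26 neutrophil markers 12 were tested, and Ncf1, a subunit of the oxidase that makes superoxide in phagocytes and also in microglia, rose by 1.14 ± 0.18 log2 units in aged against young rats (limma adjusted p = 0.0177). The other 11 did not pass, and 2.04% of all items passed in either direction. The groups stood apart with the aged higher in 5 of 12, against 14% of all items, and lower in 2 of 12, against 8.67%. The median was 0.32, beside 0.03 over all items. Of the 24 listed neutrophil genes with a probe, 9 were well above background on all 12 arrays and 8 on none. Mpo, myeloperoxidase of the granules, was well above background on 3 of 12 arrays and Cxcr2, the receptor for neutrophil chemokines, on 1 of 12. Csf3r, the receptor for the neutrophil growth factor G-CSF, had a difference of 0.74 ± 0.16 (adjusted p = 0.0585), and differences were above 0 in 8 of the 12 genes. Granule proteins lay on both sides of 0, with Camp and Ngp at 0.32 each (adjusted p = 0.483 and 0.246) and Ltf and Lcn2 at -0.63 and -0.77 (adjusted p = 0.0954 and 0.268). The summed signal of the 12 genes, in units of the array's 75th percentile, was 1.69 to 1.99 in young, 2.02 to 2.27 in middle-aged and 2.26 to 2.45 in aged rats. A sum weighs its brightest genes most, here Np4, Ncf1, Prtn3 and Pglyrp1. Of these only Ncf1 rose. Np4, Prtn3 and Pglyrp1 had differences of 0.10, -0.09 and -0.01 (limma adjusted p = 0.525, 0.651 and 0.954), so the sum is not read as a rise of neutrophil markers in general.

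Of 15 markers of monocytes and perivascular macrophages 8 were tested. In aged against young rats 4 rose (Lyve1, Pf4, Cd68 and Cd14), where 2.04% of all items passed in either direction. The summed signal of the 8 tested genes was 3.68 to 4.35 in young and 5.04 to 5.57 in aged rats. Fn1, the brightest gene of that sum, had a difference of 0.21 ± 0.10 (limma adjusted p = 0.374). Of 17 microglia markers 15 were tested and 10 rose, beside the same 2.04% of all items, P2ry12 by 1.19 ± 0.11 (adjusted p = 0.00211). The summed signal of this list was 76.9 to 86.1 in young, 111 to 131 in middle-aged and 144 to 174 in aged rats. Of 10 red blood cell markers 5 were tested and 0 passed, with a median of 0.87 and a summed signal of 69.3 to 99.5 in young, 73.8 to 78.1 in middle-aged and 110 to 158 in aged rats. Aged replicate 2, the lowest aged animal for S100a8 and S100a9, was also the lowest aged animal in the summed neutrophil, monocyte, microglia and red blood cell markers, and in the astrocyte (276) and endothelial (35.4) sums. It was the highest aged animal in the fibroblast (13.8) and ependymal (0.853) sums. In the oligodendrocyte (550) and neuron (169) sums it lay between the other aged animals. In the younger groups the neutrophil sum ranked the animals otherwise than S100a9: it was highest in young replicate 2 (1.99) and middle-aged replicate 3 (2.27), the lowest animals of their groups for S100a9. Ncf1, a bright gene of that sum that microglia also make, was highest in the same 2 animals (-1.11 and -0.46). The sum therefore does not give the neutrophil content of an animal. The part of these markers in the S100a8 and S100a9 values was not tested.

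**Figure D3:**
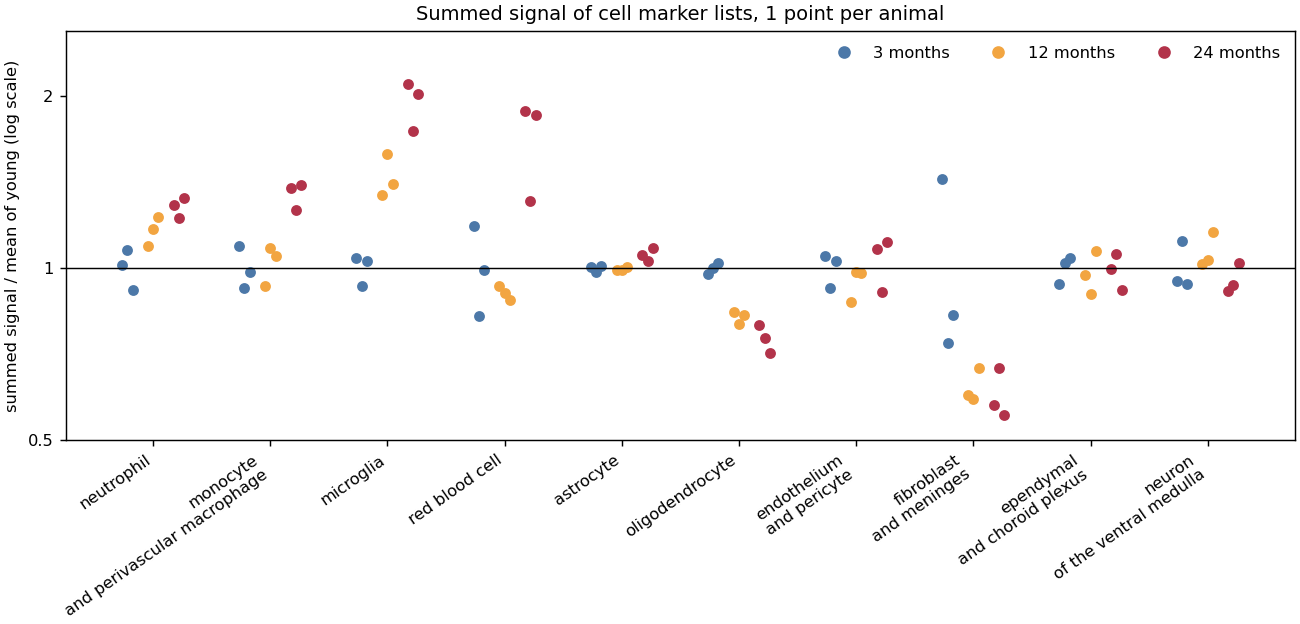
Summed signal of each cell marker list divided by its mean in young rats (log scale), 1 point for each animal, coloured by age. The microglia and red blood cell sums of the aged animals lie above those of all younger animals, the oligodendrocyte sums of both older groups lie below those of the young, and the highest point of the fibroblast list is young replicate 1, whose sum was 29.6.

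S100b, the calcium sensor of astrocytes that is also secreted, was among the steadiest members. It was spotted 10 times on each array, with an SD between spots of 0.065 to 0.166. Its level was 1.71, 1.63 and 1.60 in young, 1.76, 1.63 and 1.77 in middle-aged and 1.83, 1.67 and 1.81 in aged rats. The groups overlapped, because replicate 2 of the older groups lay at the young level. The aged minus young difference was 0.12 ± 0.08, with a 95% interval of -0.06 to 0.30 (limma adjusted p = 0.498). The value was 0.24 with slide as a block and 0.27 within slide 3. Astrocyte markers beside it gave 0 of 16 passed, a median of 0.05 and a summed signal of 264 to 271 in young, 266 to 269 in middle-aged and 276 to 291 in aged rats. Gfap, the astrocyte filament protein, had a difference of 0.92 ± 0.23 (adjusted p = 0.1), and Aqp4, the water channel of astrocyte endfeet, -0.13 ± 0.08 (adjusted p = 0.502). Among 17 oligodendrocyte markers, Mal, a proteolipid of myelin membranes, fell by 0.51 log2 units in aged against young rats (adjusted p = 0.00816) and Ugt8, an enzyme of myelin galactolipid synthesis, fell by 0.93 (adjusted p = 0.00467). The summed signal of the list was 714 to 746 in young, 582 to 612 in middle-aged and 518 to 581 in aged rats. Mbp, a main protein of myelin, had a difference of -0.58 ± 0.18 (adjusted p = 0.181).

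S100a1, S100a13 and S100a16 had small differences with little spread. S100a1, a regulator of calcium handling known best from muscle and also found in neurons, had levels of 3.42, 3.42 and 3.53 in young, 3.52, 3.59 and 3.56 in middle-aged and 3.62, 3.60 and 3.68 in aged rats. Every aged animal lay above every other animal, and the aged minus young difference was 0.18 ± 0.07 (95% interval 0.02 to 0.33, limma adjusted p = 0.267). The other S100a1 probe, A_43_P15752, read 0.30 ± 0.07 (adjusted p = 0.0869), again with no overlap of aged and young. S100a16, a widely expressed member that is abundant in astrocytes, had levels of 4.79, 4.66 and 4.66 in young, 4.68, 4.78 and 4.76 in middle-aged and 4.91, 4.88 and 4.98 in aged rats. The aged animals lay above all others, with an aged minus young difference of 0.22 ± 0.07 (95% interval 0.06 to 0.38, adjusted p = 0.192).

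S100a13, which takes part in the release of FGF1 and interleukin-1 alpha without a signal peptide, had levels of 3.23, 3.06 and 3.25 in young, 2.99, 3.33 and 3.16 in middle-aged and 3.40, 3.38 and 3.26 in aged rats. The lowest aged animal exceeded the highest young animal by little, and the difference was 0.17 ± 0.10 (95% interval -0.06 to 0.40, limma adjusted p = 0.475). The 2 arrays of aged replicate 3 differed by 0.49 for this probe, and within slide 3 the difference was -0.03. Its cargo Fgf1 had a difference of 0.10 ± 0.22 (adjusted p = 0.868), and Il1a was well above background on 1 of 12 arrays.

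**Figure D4:**
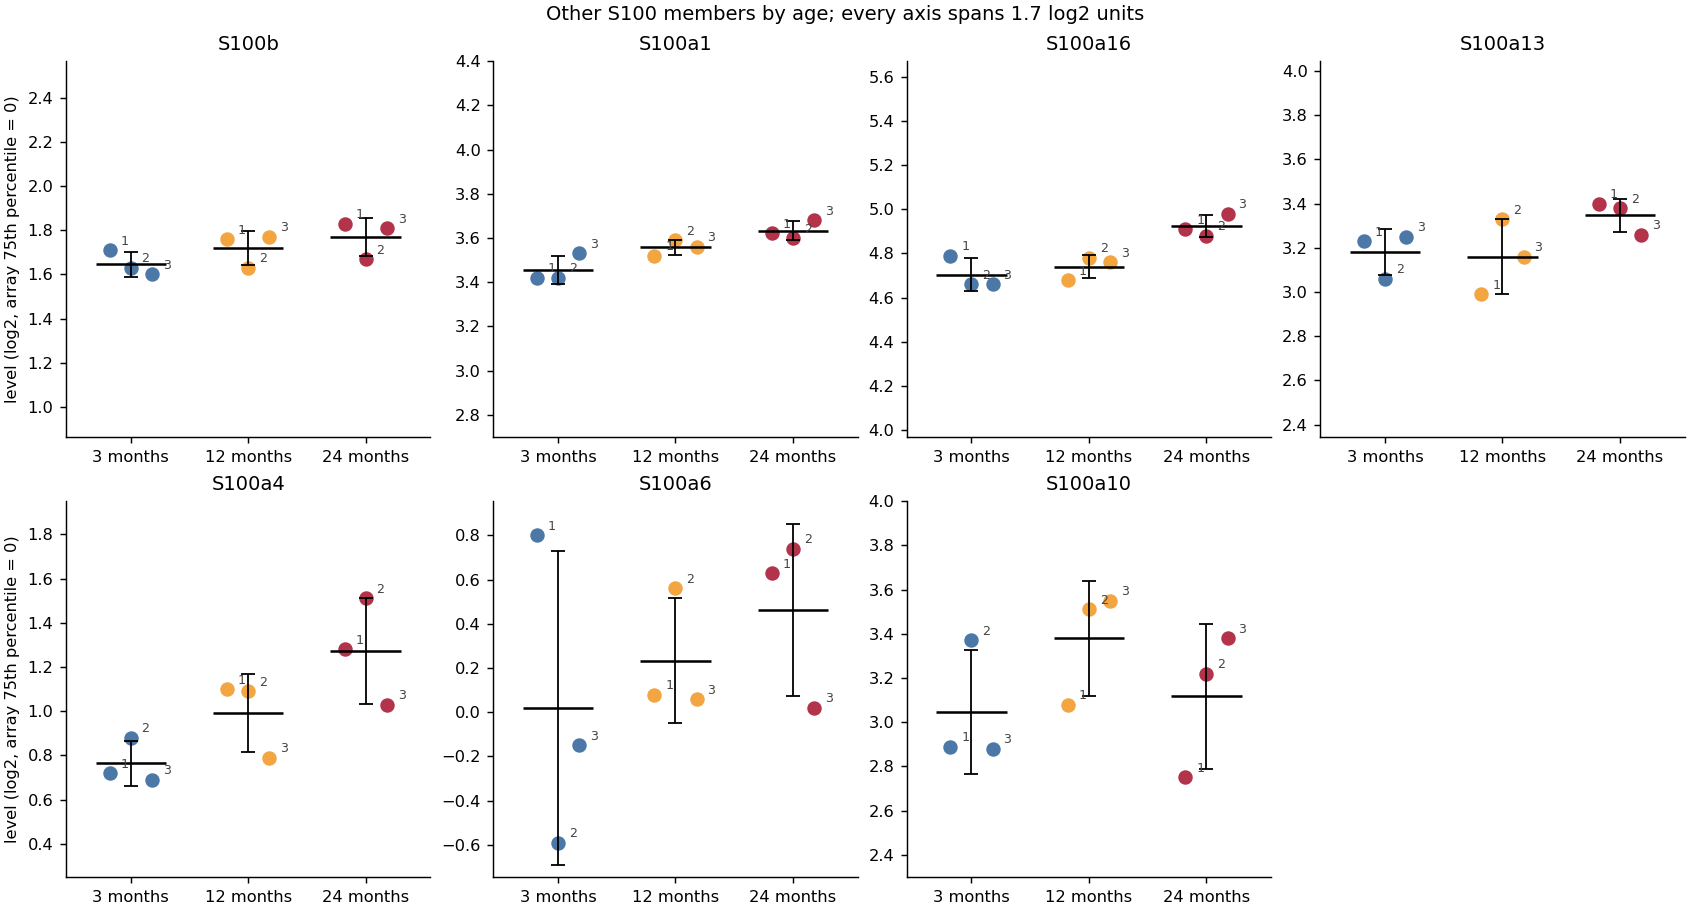
Level (log2, array 75th percentile at 0) of the 7 S100 members other than S100a8 and S100a9 in each animal by age, with every panel spanning the same 1.7 log2 units. Points are animals labelled by replicate, long bars are group means and whiskers are 1 SD. S100b, S100a1 and S100a16 vary least, and S100a6 spreads most within a group, from -0.59 to 0.80 in young rats.

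S100a4, which binds non-muscle myosin and is known from motile cells, fibroblasts and white-matter astrocytes, was read by 3 kept probes. By the probe used for the gene, A_44_P1060286, its level was 0.72, 0.88 and 0.69 in young, 1.1, 1.09 and 0.79 in middle-aged and 1.28, 1.51 and 1.03 in aged rats. Every aged animal lay above every young animal, and the middle-aged group overlapped both. The aged minus young difference was 0.51 ± 0.14 log2 units, with a 95% interval of 0.20 to 0.82 log2 units (limma adjusted p = 0.122), or 1.42-fold. The other transcript-strand probe, A_43_P11489, read 0.46, 0.17 and 0.27 in young, 1.00, 1.25 and 0.54 in middle-aged and 1.38, 1.82 and 0.99 in aged rats. All 6 older animals lay above the young ones on that probe. Its aged minus young difference was 1.1 ± 0.23 log2 units (95% interval 0.57 to 1.62 log2 units, adjusted p = 0.0548), or 2.14-fold. The size of the S100a4 difference thus depended on the probe. The mean of all 3 kept probes gave 0.71 (adjusted p = 0.0508), but it includes the opposite-strand probe described next. It is therefore not a value of the S100a4 transcript alone.

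The opposite-strand S100a4 probe, A_44_P332021, was well above background on all 12 arrays. It read -4.80, -4.85 and -4.81 in young, -4.47, -4.18 and -4.56 in middle-aged and -4.40, -4.19 and -4.34 in aged rats. All 6 older animals lay above all young animals, with an aged minus young difference of 0.51 ± 0.11 (95% interval 0.27 to 0.75, limma adjusted p = 0.0552). The 2 arrays of replicate 3 differed by 0.29 to 0.53 on this probe, against 0.07 to 0.17 on the probe used for the gene. Whether its signal comes from RNA of the other strand was not tested.

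**Figure D5:**
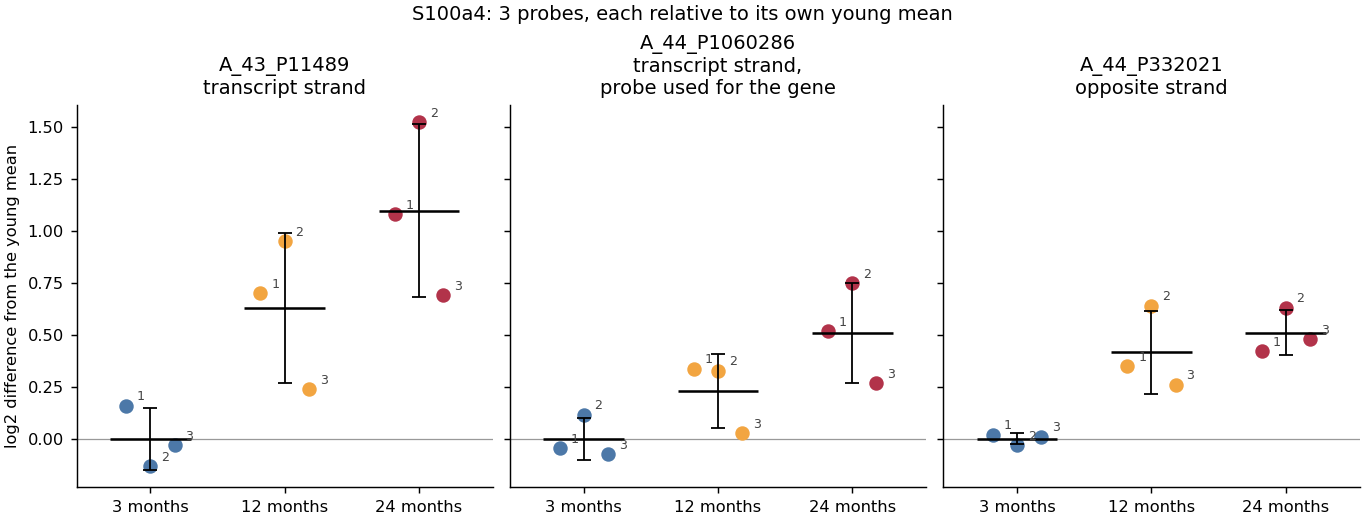
The 3 kept S100a4 probes, each as the log2 difference from its own young mean, by age. Points are animals labelled by replicate, long bars are means and whiskers are 1 SD. On all 3 probes the aged animals lie above the young ones, with aged means of 1.1, 0.51 and 0.51 from left to right.

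S100a6, calcyclin, a partner of the ubiquitin-ligase adaptor Cacybp, spread widely within groups. Its level was 0.80, -0.59 and -0.15 in young, 0.08, 0.56 and 0.06 in middle-aged and 0.63, 0.74 and 0.02 in aged rats. Young replicate 1 was the highest of all 9 animals and young replicate 2 the lowest, so the groups overlapped. The aged minus young difference was 0.44 ± 0.34 (95% interval -0.34 to 1.22, limma adjusted p = 0.58), and it was 0.83 without young replicate 1 and 0.14 without young replicate 2. The same young replicate 1 had the highest summed signal of the fibroblast and meninges list, 29.6 against 15.3 and 17.1 in the other young rats, 12.2 to 13.8 in middle-aged and 11.4 to 13.8 in aged rats. On that list 0 of 10 genes passed, and the median aged minus young difference was -0.52. The part of these markers in the S100a6 values was not tested. The minus-strand probe A_44_P519487 was well above background on 4 of 12 arrays and was not kept.

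S100a10, also called p11, pairs with annexin A2 (Anxa2) to anchor channels and serotonin receptors at the membrane. Its level was 2.89, 3.37 and 2.88 in young, 3.08, 3.51 and 3.55 in middle-aged and 2.75, 3.22 and 3.38 in aged rats. The groups overlapped throughout, with an aged minus young difference of 0.08 ± 0.21 (95% interval -0.39 to 0.55, limma adjusted p = 0.892), a middle-aged minus young difference of 0.34 and an aged minus middle-aged difference of -0.26. Within slide 3 the aged minus young value was 0.50. Anxa2 itself read 1.74, 1.21 and 1.64 in young, 2.41, 2.89 and 1.77 in middle-aged and 1.27, 2.67 and 1.31 in aged rats, with an aged minus young difference of 0.22 ± 0.40 (adjusted p = 0.838). Aged replicate 2 was far above the other aged animals for Anxa2 and between them for S100a10.

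The members differed in how much they varied over the 9 animals. The root mean square deviation from the gene's own mean was 0.0804 log2 units for S100b, 0.0826 for S100a1, 0.108 for S100a16, 0.13 for S100a13, 0.256 for S100a4, 0.278 for S100a10, 0.443 for S100a6, 0.982 for S100a9 and 1.3 for S100a8. The calprotectin genes thus had the widest scatter over all animals, and S100a8 was near background in young rats. This measure includes the differences between ages. Within groups the SD of S100a9 was 0.61, 0.43 and 0.75 from young to aged, and that of S100a6 was 0.71, 0.29 and 0.38. The 95% intervals of the aged minus young difference of S100a9 (1.05 to 2.96) and of S100b (-0.06 to 0.30) did not overlap, and a difference between these members was not tested.

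Among 35 partners and receptors of S100 proteins, 29 were tested and 0 passed in any of the 3 comparisons. Aged and young groups stood apart in 5 of 29, higher in 2, against 14% of all items, and lower in 3, against 8.67%. The median difference was 0.05, beside 0.03 over all items. Tlr4, the receptor for S100a8 and S100a9, read -3.50, -3.68 and -3.66 in young, -3.19, -3.62 and -3.27 in middle-aged and -2.87, -3.17 and -2.94 in aged rats. All 3 aged animals lay above the others, and the aged minus young difference was 0.62 ± 0.13 (limma adjusted p = 0.0526). Ager, which encodes RAGE, had a difference of 0.08 ± 0.07 (adjusted p = 0.618). The membrane proteins Bsg and Nptn, which bind S100a9 and S100a8 on receiving cells, had differences of -0.22 ± 0.14 and 0.01 ± 0.09 (adjusted p = 0.502 and 0.961). Ahnak, a large scaffold that binds the S100a10 complex, had 0.17 ± 0.13 (adjusted p = 0.557), and Cacybp had -0.11 ± 0.08 (adjusted p = 0.546).

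Of 15 other S100 genes and relatives with a fused S100 domain, 4 were tested (S100a3, S100g, Flg and Tchh) and 0 passed in any comparison, with a median aged minus young difference of 0.37. S100a3 lies between S100a16 and S100a4 in the GRCr8 order, and its difference was 0.30 ± 0.10 (limma adjusted p = 0.195), with every aged animal above every young animal. S100g, a calcium buffer known from the intestine, had 0.51 ± 0.30 (adjusted p = 0.457). Of 47 other EF-hand calcium-binding proteins 44 were tested. In aged against young rats 1 rose and 0 fell, beside 2.04% of all items that passed, with a median of -0.02, and 0 passed in the other comparisons. The 1 that rose was Aif1 (also called Iba1), a calcium-binding actin-bundling protein of microglia and macrophages that also stands on the microglia list, by 0.92 ± 0.10 (adjusted p = 0.00345). The neuronal calcium buffers Calb1, Calb2 and Pvalb had differences of -0.08 ± 0.10, -0.25 ± 0.32 and 0.21 ± 0.39 (adjusted p = 0.751, 0.751 and 0.834).

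The named genes whose levels followed each member most closely over the 9 animals were found by the root mean square difference of levels after each gene's mean was subtracted, and they are given as a description of these animals. Because they were chosen by the same levels, their age differences partly follow from the choice and are not separate evidence on the members. For S100a9 they were Slfn4 (0.378 log2 units), Napsa (0.379) and Mpeg1 (0.449), beside the member's own 0.982. Mpeg1, a pore-forming protein of macrophages, rose in aged against young rats by 1.57 (limma adjusted p = 0.0173), Napsa, an aspartic protease, rose by 1.59 (adjusted p = 0.0207), and Slfn4 had a difference of 1.54 (adjusted p = 0.0509). For S100a8 they were Fcrl2 (0.689), Prf1 (0.704) and Plac8 (0.725), beside 1.3. These S100a8 values rest in part on young replicates 2 and 3, in which S100a8 was not well above background, so the order of its closest genes is not read.

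For S100a6 the closest were Tagln (0.141), a smooth muscle actin-binding protein, Vim (0.213), a filament protein of mesenchymal and glial cells, and Adam33 (0.218), beside the member's own 0.443. Vim shared the pattern in which young replicate 1 was highest, at 1.73 against 0.29 and 0.49 in the other young rats. For S100a10 they were Nefm (0.0859), a filament protein of large axons, Tesc (0.103) and Amhr2 (0.116), beside 0.278. For S100a4 they were Pirb (0.12), Or14n1 (0.121) and Pcdhb22 (0.124), beside 0.256, and Pirb, an inhibitory receptor of myeloid cells and neurons, rose by 0.46 (limma adjusted p = 0.0408). For S100b they were Arhgap1 (0.0323), Ctnnal1 (0.0412) and Mapt (0.0417), for S100a16 Scaf8 (0.0392), Atp6v0e1 (0.0415) and Apoe (0.042), for S100a13 Ctdsp1 (0.0407), Mtdh (0.0508) and Wfdc2 (0.0524), and for S100a1 Gtf2f1 (0.0216), Rps3 (0.0267) and Washc2c (0.0271). None of these last 12 genes passed the aged minus young test, and neither did the members they were chosen to follow.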

How the data were processed

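Per the file headers, the deposited array files hold linear fluorescence intensity from Agilent Feature Extraction 9.5.1.1 (version per the submitters' processing notes), background-subtracted and detrended within each array, with no scaling between arrays. Deposited flags of 0 or 1 mark outlier, saturated and dim spots. The deposited series matrix holds a score with mean 0 and SD 1 in each array, of unstated log base, centring and direction; it correlated at 1.0 with the log2 processed signal and served as an alternative.

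Outlier spots (57 to 140 of 43379 per array) were set missing, log2 signals of a probe's spots averaged, and the array's 75th percentile subtracted. Arrays of 1 animal were averaged. Of 41012 probes 29797 were kept (all arrays of 1 or more groups well above background). The brightest kept probe stood for a gene, and unnamed probes stayed, giving 25446 items, 14114 named. Names came from RefSeq by accession, name or synonym, otherwise from the file; 17604 probes had none. Probe coordinates are rn3, per the file headers.

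Group means over 9 animals were compared with limma 3.58.1 in R 4.3.3 (prior degrees of freedom 2.64), 2-sided, Benjamini-Hochberg over all items, threshold 0.05; only what passed is said to rise or fall. On simulated data of 25446 items for aged minus young the fit recovered 72% of changes of 1 log2 unit and 94% of changes of 2, with 10 false calls. The changed items were drawn at random from all items, whose median SE was 0.11. These rates do not describe S100a9 and S100a8, whose SEs were 0.42 and 0.71. The members, the 13 gene lists and the tests were chosen with earlier results of these data known. Named by rule were the members, list genes past the threshold or with a stated role (at most 6 per marker list), defining markers and the 3 closest genes per member. Csf3r, Camp, Ngp, Ltf, Lcn2, Np4, Prtn3, Pglyrp1, Fn1, Fgf1, Il1a, S100a3, S100g and the neuron markers were named after their values were seen. Replicate numbers are shared by the groups but the labels give no pairing, so the block was an alternative, as were background correction, normalization, filter, probe choice, slide, prior and leaving out each animal. 1 marker gene is not reported here.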

Additional observations from a re-analysis of the deposited data

How the results depend on the processing

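S100 members past the threshold numbered 0 in every comparison. In aged against young rats the count was 1, S100a9, with probes well above background on all 12 arrays (adjusted p = 0.0465), with 12 arrays and the animal as a random block (0.0153) and with a trend and robust prior (0.0458). Leaving out 1 animal gave counts of 0 to 1. In the F test the count was 1 with the animal as a random block. Under the 22 alternatives with a limma fit the adjusted p of S100a9 in aged minus young was 0.0153 to 0.179 and its sign did not turn. The smallest adjusted p was 0.0659 for S100a8 and 0.0508 for S100a4, the latter with the mean of its kept probes, which includes the opposite-strand probe. Of the aged minus young differences, S100a10 turned sign in 3 of 22 fits, -0.06 to 0.26, and within slide 3 S100a13 read -0.03.

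With the replicate number as a replicate block 0 members passed in any comparison, and 356 items passed in aged minus young against 520. Same-numbered animals did not deviate together: the correlations over items were -0.41 to 0.37, so the numbers were not taken as pairs. Items passing in aged minus young numbered 310 with normexp correction, 321 with slide as a block, 343 with only the compared groups, 288 with no filter and 271 to 510 without 1 animal. Over all alternatives they numbered 2 to 75, against 51, in middle-aged minus young, 0 to 26, against 3, in aged minus middle-aged, and 104 to 418, against 293, in the F test. The series matrix differences are in units of each array's SD. S100a8 is limited by signal near background in young rats.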

Other observations

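Promoter sequences of RefSeq on GRCr8, which run from 250 bases before to 50 bases after the start of the gene, were at hand for 7 of the 10 S100 genes (S100a4, S100a6, S100a9, S100a11, S100a13, S100a16 and S100b). The letters TATAAA, searched on the gene's strand in the last 50 bases before the start, were found in S100a4 and S100a9 and in 2.46% of all 27457 promoters. The letters TTGCNNAA, searched on both strands of the whole window, were found in none of the 7 and in 10.48% of all promoters. A match of letters is a description and not a binding site.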
